A study of Mus musculus with 4 samples.

Results

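The neuronal activity genes described here are 10 genes whose transcripts neurons make soon after synaptic stimulation. They are Arc, Npas4, the nuclear receptor genes Nr4a1, Nr4a2 and Nr4a3, the zinc finger genes Egr1, Egr2, Egr3 and Egr4, and the neurotrophin gene Bdnf. They were chosen by name, with earlier results of these data known, and all 10 were found among the 23466 gene symbols of the table. Each gene is represented by its RefSeq record with the highest mean over the 4 libraries. RNA was measured in frozen hippocampus of C57BL/6N mice at postnatal day 30. The 2 mutants, labelled 38 and 39, have the genotype Atp6ap2Camk2aCre/0, called a conditional het in one label and ko in another, and the 2 controls, labelled 11 and 73, are given as wt. Atp6ap2 is an X-linked gene for an accessory protein of the vacuolar proton pump. Camk2a-Cre is a recombinase active in forebrain excitatory neurons, so that other cells of the tissue keep an intact gene. The labels do not say whether the wild-types carried Cre or the conditional allele, nor whether each library is 1 animal. P-values therefore measure only the spread between these libraries. The comparison asks which transcripts of the hippocampus differ with the targeting of Atp6ap2 in these neurons.

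Synaptic calcium entry activates kinases and the phosphatase calcineurin, which act on transcription factors already present in the nucleus, among them Creb1, Srf and the Mef2 proteins. These switch on a first wave of genes that needs no new protein. Npas4, the Nr4a receptors and the Egr proteins are transcription factors of that wave. Arc acts at the synapse, where it promotes removal of AMPA-type glutamate receptors, and Bdnf is secreted. In the hippocampus these transcripts are widely used as markers of recently active excitatory neurons.

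The deposited values are aligned bases per transcript, scaled between libraries. They were divided here by the read length of 42 bases to give scaled read equivalents. Depth over genes lay between 10023033 read equivalents before scaling (wild-type 73) and 18339838 (wild-type 11). Atp6ap2 had 2551 and 2522 scaled read equivalents in mutants 38 and 39, against 2312 and 2637 in wild-types 11 and 73, so the targeted gene was not lower over its whole transcript. The labels do not say which part is deleted, so this level checks neither label. Choroid plexus markers divided both groups. The 15 markers summed to 124182 and 7790.2 in mutants 38 and 39, against 74538 and 7481 in wild-types 11 and 73. Mutant 38 with wild-type 11 is called the choroid-rich pair, and mutant 39 with wild-type 73 the choroid-poor pair. Of 18127 genes tested with limma, 1 passed an adjusted p of 0.05 (0.00552%). That number was 8 without mutant 38, 7 without mutant 39, 37 without wild-type 11 and 1 without wild-type 73.

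Of the 10 activity genes, 0 passed in limma after adjustment over all genes. Both mutants were below both wild-types for 5 of them (Arc, Npas4, Nr4a3, Egr2 and Egr4) and above for 0. Over all genes tested, 16.5% had both mutants below both wild-types and 16.8% both above. Among the 13029 genes with a mean of at least 50 scaled read equivalents, as all 10 have, these shares were 16.7% and 17.1%. At an unadjusted p below 0.05, 3 of the 10 were lower (Arc, Npas4 and Nr4a3) and 0 higher, against 1.75% lower and 2.18% higher of all genes and 1.9% lower of those with a mean of at least 50. The median log2 fold change of the 10 was -0.23, against 0.01 for all genes. Because the 10 were chosen with earlier results of these data known, these counts describe the list and do not test it. With 2 libraries a side, a two-sided exact permutation test of a single gene cannot give a p below 0.333. In bulk tissue, fewer cells of a type and less RNA per cell cannot be told apart.

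**Figure D1:**
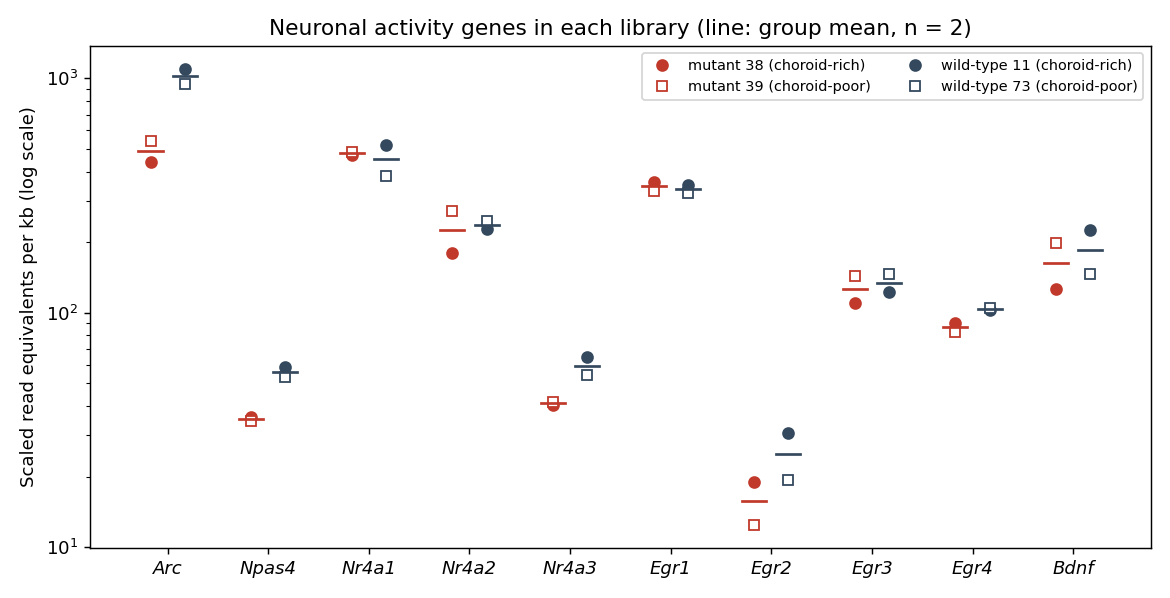
Scaled read equivalents per kb of transcript (log axis) of the 10 activity genes in each library, mutants in red to the left of wild-types in dark blue, with filled circles for the choroid-rich and open squares for the choroid-poor libraries and lines for group means (n = 2 each). Arc, Npas4 and Nr4a3 show both mutants clearly below both wild-types, Egr1 shows no such gap, and Bdnf and Nr4a2 are spread widely within groups.

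Arc had the largest difference of the 10. Its protein assembles into capsid-like particles and takes AMPA receptors from the synaptic surface. Arc had 1344 and 1647 scaled read equivalents in mutants 38 and 39, against 3354 and 2884 in wild-types 11 and 73. The higher mutant lay well below the lower wild-type. Arc averaged 1496 ± 215 in mutants and 3119 ± 332 in wild-types (SD, n = 2 each), which puts the mutant mean at 47.9% of the wild-type mean. The log2 fold change was -1.06 ± 0.13 (SE; 95% interval -1.38 to -0.75), with a limma p of 9.87e-05 before adjustment and 0.149 after it. By unadjusted p, Arc stood at rank 12 of all genes and rank 3 of those lower in the mutants. Of the 13029 genes with a mean of at least 50, 20 (0.154%) had a lower log2 fold change than Arc.

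In the authors' deposited table Arc had a p of 1.64e-12, which is 8.67e-09 after a Benjamini-Hochberg adjustment made here over 31315 records. It is not stated whether the p-values in the authors' deposited table are already adjusted, and they were taken as unadjusted here and below. The column holds 23186 distinct values, and 94 after the adjustment made here. Of those records in the authors' deposited table, 61 (0.195%) pass at 0.05 and 20 (0.0639%) pass and are lower in the mutants. The limma call depended on how the spread was modelled. Arc passed with a robust variance prior (limma adjusted p = 0.0445) and with choroid plexus content as a covariate (limma adjusted p = 3.00e-06). The covariate fit leaves few residual degrees of freedom in 4 libraries, so its p rests largely on variance borrowed across genes. The log2 fold change of Arc was -1.06 ± 0.11 (SE) in that fit, against -1.06 ± 0.13 without the covariate. Over all 14 alternatives the limma adjusted p ran to 0.627. The log2 fold change itself stayed between -1.21 and -0.92 in those alternatives. The table has 2 Arc records, which differed by less than 1 scaled read equivalent in every library.

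**Figure D2:**
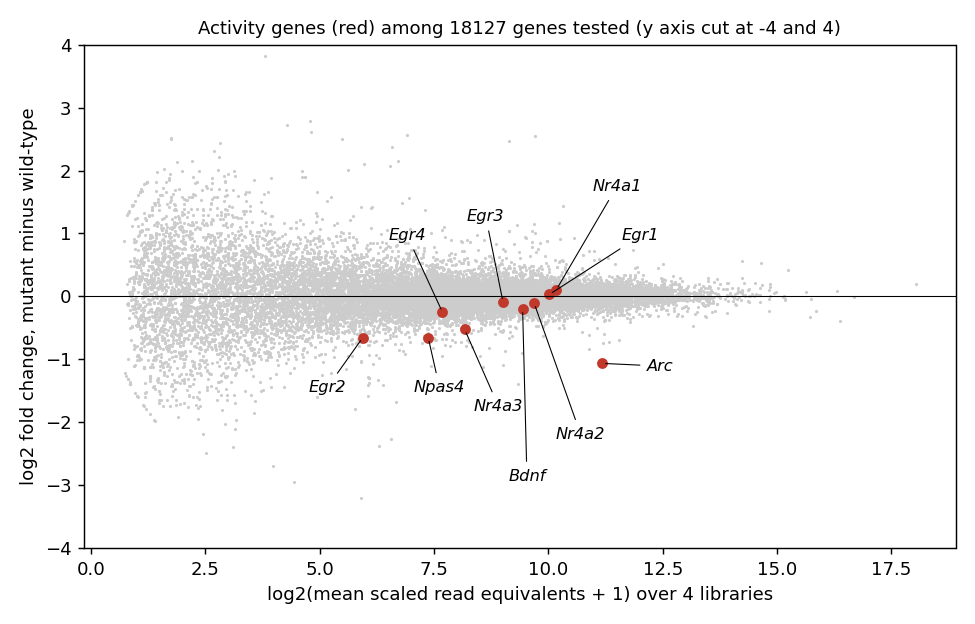
Log2 fold change (mutant minus wild-type) against log2 of the mean level plus 1 over 4 libraries for 18127 genes in grey, with the 10 activity genes in red. Arc lies apart from most genes of its level at -1.06, Npas4, Egr2 and Nr4a3 lie between -0.66 and -0.52, and the other 6 lie between -0.25 and 0.10.

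Npas4, a transcription factor gene induced by depolarisation of neurons, whose product promotes inhibitory synapses, had 129.5 and 126 scaled read equivalents in mutants 38 and 39, against 212 and 192 in wild-types 11 and 73. The mutants were close to each other and both were below the wild-types. Npas4 averaged 128 ± 2.72 in mutants and 202 ± 14.0 in wild-types (SD, n = 2 each), so the mutant mean was 63.2% of the wild-type mean. The log2 fold change was -0.66 ± 0.17 (SE; 95% interval -1.06 to -0.25), with a limma p of 0.00646 before adjustment and 0.989 after it. The authors' deposited table gave Npas4 a p of 0.0179, which is 1 after the adjustment made here if that p was unadjusted. Few reads lay behind these values, with 153 and 139 before scaling in mutants 38 and 39, against 253 and 123 in wild-types 11 and 73.

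The 3 Nr4a genes encode orphan nuclear receptors, and of these only Nr4a3 had both mutants on the same side of both wild-types. Nr4a3 (Nor1) had 231 and 238 scaled read equivalents in mutants 38 and 39, against 369 and 309 in wild-types 11 and 73. The groups did not overlap, and the mutant mean was 69.1% of the wild-type mean. For Nr4a3 the log2 fold change was -0.52 ± 0.15 (SE, 2 libraries a group; 95% interval -0.88 to -0.16), with a limma p of 0.0108 before adjustment and 0.989 after it. The authors' deposited table gave Nr4a3 a p of 0.0193, which is likewise 1 after the adjustment made here. Nr4a1 (Nur77) is the member of the family most used as an activity marker. It had 1167 and 1203 in mutants 38 and 39, against 1291 and 945 in wild-types 11 and 73, so that both mutants lay between the wild-types. Its log2 fold change was 0.10 ± 0.15 (SE; 95% interval -0.26 to 0.47), and -0.12 without wild-type 73. Nr4a2 (Nurr1) is also known for its role in dopamine neurons. It had 639 and 966 in mutants 38 and 39, against 814 and 879 in wild-types 11 and 73, with both wild-types between the mutants. Its log2 fold change was -0.11 ± 0.19 (SE; 95% interval -0.56 to 0.35), and 0.19 without mutant 38.

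Promoters are shown for the genes other than Arc that had both mutants below both wild-types, with Nr4a1 as a relative that did not. Promoters of 7 of the 10 genes were examined, from the RefSeq table of build GRCm38.p6. Those of Arc, Egr1 and Egr3 were not examined. The search left out the chromosome of Egr1, so its absence says nothing about that table. The submitters' processing notes name mm9 for the deposited values, which carry no coordinates. Each sequence is the 250 bases before the RefSeq start, 5′ to 3′, taken at the start nearest to that of the deposited record's transcript in GENCODE M21. For Npas4 and Nr4a3 these starts are 345 and 152 bases apart. Capitals mark the short form of the cyclic AMP response element (TGACG, or CGTCA on the other strand), to which Creb1 can bind, the CArG box of Srf and the Egr site.
Npas4 (chr19:4989972-4990221, - strand): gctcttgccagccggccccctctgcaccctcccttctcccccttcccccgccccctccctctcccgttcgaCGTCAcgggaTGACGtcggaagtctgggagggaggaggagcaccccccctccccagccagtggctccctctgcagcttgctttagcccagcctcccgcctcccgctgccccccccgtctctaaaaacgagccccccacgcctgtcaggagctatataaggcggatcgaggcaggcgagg
Nr4a3 (chr4:48045055-48045304, + strand): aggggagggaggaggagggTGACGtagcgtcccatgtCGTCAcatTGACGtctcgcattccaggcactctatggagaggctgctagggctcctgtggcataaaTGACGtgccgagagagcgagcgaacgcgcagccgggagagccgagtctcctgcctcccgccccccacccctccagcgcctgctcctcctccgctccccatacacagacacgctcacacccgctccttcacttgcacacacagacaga
Egr4 (chr6:85513590-85513839, - strand): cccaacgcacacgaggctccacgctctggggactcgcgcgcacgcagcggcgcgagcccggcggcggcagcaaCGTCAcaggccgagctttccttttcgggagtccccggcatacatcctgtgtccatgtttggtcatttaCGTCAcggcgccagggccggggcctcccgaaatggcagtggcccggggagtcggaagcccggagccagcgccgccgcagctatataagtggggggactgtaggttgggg
Egr2 (chr10:67537619-67537868, + strand): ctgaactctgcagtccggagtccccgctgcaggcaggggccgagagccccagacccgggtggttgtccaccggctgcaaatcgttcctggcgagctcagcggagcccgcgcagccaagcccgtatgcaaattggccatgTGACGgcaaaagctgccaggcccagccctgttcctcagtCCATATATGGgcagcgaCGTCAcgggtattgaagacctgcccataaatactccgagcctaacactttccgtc
Nr4a1 (chr15:101266596-101266845, + strand): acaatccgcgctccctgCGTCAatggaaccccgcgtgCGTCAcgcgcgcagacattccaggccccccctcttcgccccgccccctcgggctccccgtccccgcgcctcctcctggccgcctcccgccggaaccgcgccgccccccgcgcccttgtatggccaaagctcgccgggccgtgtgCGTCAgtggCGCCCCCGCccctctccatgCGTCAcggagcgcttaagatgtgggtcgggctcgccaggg
The short element occurred 2 times in Npas4, 4 times in Nr4a3, 2 times in Egr4, 2 times in Egr2 and 4 times in Nr4a1, whereas 17.8% of the 32851 promoters in the table hold it. It was present in shown genes with lower and with similar levels in the mutants. All 7 genes whose promoters were examined had it before at least 1 start, which for Bdnf was 1 of 7 starts. Of those shown, Egr2 had the CArG box (1.47% of all promoters) and Nr4a1 the Egr site, GCGGGGGCG or GCGTGGGCG (3.06%). The full element TGACGTCA (1.55% of all promoters), the Nr4a response element AAAGGTCA (1.34%) and TATAAA (12.4%) were in none of the 5 shown. All motifs were searched on both strands, and the full element contains the short one.

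The Egr genes encode zinc finger factors that bind a shared GC-rich site. Egr1 (Zif268), much studied in memory, had 1093 and 1004 scaled read equivalents in mutants 38 and 39, against 1068 and 985 in wild-types 11 and 73. The groups overlapped almost fully, with a log2 fold change of 0.03 ± 0.11 (SE, 2 libraries a group; 95% interval -0.22 to 0.29). The value for Egr1 was -0.03 without mutant 38 and also -0.03 without wild-type 73. Within a library, the per-length ratio of Arc to Egr1 was 1.22 and 1.63 in mutants 38 and 39, against 3.12 and 2.91 in wild-types 11 and 73. The ratio was thus lower in both mutants, which restates the Arc difference because Egr1 was similar in the groups.

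Egr3, which acts in synaptic plasticity and in muscle spindles, had 434 and 565 scaled read equivalents in mutants 38 and 39, against 483 and 574 in wild-types 11 and 73. Its groups overlapped, at a log2 fold change of -0.09 ± 0.17 (SE, 2 libraries a group; 95% interval -0.48 to 0.30). That value was 0.10 without mutant 38 and 0.04 without wild-type 73. Egr4 had 195 and 179 in mutants 38 and 39, against 221 and 224 in wild-types 11 and 73. Its groups did not overlap, but the interval of its log2 fold change of -0.25 ± 0.16 (SE) ran from -0.62 to 0.12. Egr2 (Krox20), also a factor of myelinating Schwann cells in peripheral nerve, had the fewest reads of the 10. It had 56.2 and 36.9 in mutants 38 and 39, against 90.9 and 57.5 in wild-types 11 and 73. Mutant 38 and wild-type 73 nearly touched, and wild-type 73 rests on 36.8 reads before scaling, so the gap between the groups is within counting error. The log2 fold change of Egr2 was -0.65 ± 0.34 (SE; 95% interval -1.46 to 0.15). It ran from -0.98 without wild-type 73 to -0.33 without wild-type 11.

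Bdnf, the neurotrophin that acts on the receptor Ntrk2, varied more within groups than between them. It had 501.5 and 788 scaled read equivalents in mutants 38 and 39, against 894 and 584 in wild-types 11 and 73. A wild-type was highest, a mutant second, and the groups overlapped. The fold change on the log2 scale was -0.20 ± 0.26 (SE, 2 libraries a group; 95% interval -0.82 to 0.42), and it was 0.13 without mutant 38 and 0.11 without wild-type 11. The table holds 4 Bdnf records. Bdnf transcripts share the coding last exon and differ in the first exon, since the gene is read from several promoters. The record NM_001048142 exceeded the lowest, NM_007540, by 27.7 and 44.4 scaled read equivalents in mutants 38 and 39, against 53.1 and 46.3 in wild-types 11 and 73. The other 2 Bdnf records exceeded it by 1.63 to 12.1. Most of the signal of each record was therefore common to all 4, and their limma log2 fold changes lay between -0.20 and -0.17. The 2 Nr4a2 records had -0.11 and -0.08.

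Per kb of transcript, with lengths from GENCODE M21, the order of the levels was the same in both groups. Arc led with 489.5 ± 70.3 scaled read equivalents per kb in mutants and 1021 ± 109 in wild-types (SD, n = 2 each). Nr4a1 followed with 479 ± 10.3 per kb in mutants and 451 ± 99.0 in wild-types. Egr1 came next with 345 ± 20.7 per kb in mutants and 338 ± 19.3 in wild-types. In the mutants the libraries of Arc (440 to 539) and Nr4a1 (471 to 486) overlapped, and in the wild-types they did not. The middle of the order was Nr4a2 (225 in mutants, 237 in wild-types), Bdnf (162 in mutants, 186 in wild-types), Egr3 (127 in mutants, 134 in wild-types) and Egr4 (87.0 in mutants, 104 in wild-types). Nr4a2 overlapped with Bdnf, and Bdnf with Egr3, in the mutants and in neither case in the wild-types. The lowest per-kb levels were those of Nr4a3 (41.0 in mutants, 59.3 in wild-types), Npas4 (35.2 in mutants, 55.7 in wild-types) and Egr2 (15.7 in mutants, 25.03 in wild-types). Nr4a3 and Npas4 overlapped in the wild-types.

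Within the choroid-rich and the choroid-poor pair the libraries are nearer in choroid plexus content than across pairs but not equal, with a median log2 difference of the choroid plexus markers of 0.72 in the rich pair and -0.36 in the poor pair. Each pair has 1 library a side and no test. Arc had a log2 difference of -1.32 in the rich pair and -0.81 in the poor pair. For Npas4 it was -0.70 in the rich pair and -0.61 in the poor pair, and for Nr4a3 -0.67 in the rich pair and -0.38 in the poor pair. Their shared sign follows from groups that do not overlap. Bdnf had -0.83 in the rich pair and 0.43 in the poor pair. Nr4a2 had -0.35 in the rich pair and 0.13 in the poor pair, and Nr4a1 -0.15 in the rich pair and 0.35 in the poor pair. For these 3 genes the pairs had opposite signs. Egr1 had 0.03 in both pairs. With choroid plexus content as a covariate, Arc alone of the 10 passed, in a limma fit that called 113 genes. That fit leaves few residual degrees of freedom in 4 libraries.

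**Figure D3:**
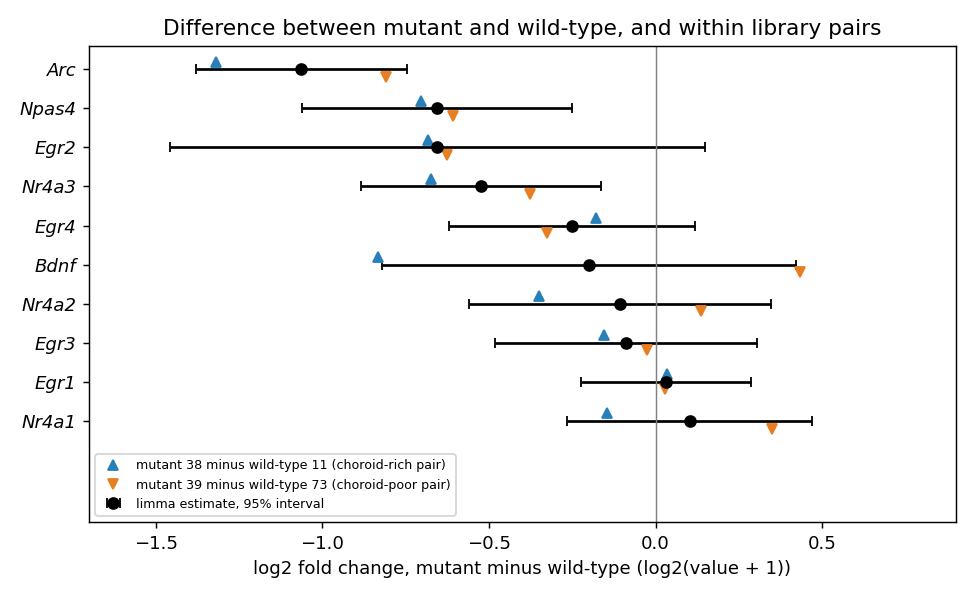
Log2 fold change (mutant minus wild-type) of the 10 activity genes with its 95% interval from limma (black), and the difference within the choroid-rich pair (blue) and the choroid-poor pair (orange), 1 library a side. The intervals of Arc, Npas4 and Nr4a3 lie below 0, and the pairs have opposite signs for Bdnf, Nr4a2 and Nr4a1.

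The mutants also differed from each other. On the log2 scale, mutant 39 exceeded mutant 38 by 0.65 for Bdnf, 0.59 for Nr4a2, 0.38 for Egr3 and 0.29 for Arc. The difference of mutant 39 minus mutant 38 was -0.59 for Egr2, -0.13 for Egr4 and -0.12 for Egr1. Wild-type 73 minus wild-type 11 was -0.61 for Bdnf, 0.11 for Nr4a2, 0.25 for Egr3, -0.22 for Arc and -0.65 for Egr2. For Npas4, Nr4a1 and Nr4a3 the mutants lay within 0.05 of each other. The summed level of 7 CA1 pyramidal cell markers was 7732 and 11592 scaled read equivalents in mutants 38 and 39, against 9930.3 and 10693 in wild-types 11 and 73, lowest in mutant 38 and highest in mutant 39. The part of CA1 tissue in the values of the activity genes was not tested.

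Of the 6 lists of genes around these, 0 members passed in limma after adjustment. From each list, the 3 genes of smallest p are named, and Fos, Junb, Homer1, Srf, Creb1 and Ntrk2 were added for their known roles after their values were seen. Among 28 other rapid response genes, 9 were higher and 3 lower at an unadjusted p below 0.05, against 2.18% and 1.75% of all genes. Of the 28, 11 had both mutants above and 5 both below, against 16.8% and 16.5% of all genes. The median log2 fold change of the 28 was 0.14. Cyr61, a matrix protein gene, had 1242 and 679 scaled read equivalents in mutants 38 and 39, against 166 and 163 in wild-types 11 and 73 (log2 fold change 2.47 ± 0.26 SE, limma adjusted p = 0.123). Maff, a small bZIP factor gene, had 189 and 129 in mutants 38 and 39, against 27.6 and 31.3 in wild-types 11 and 73 (2.37 ± 0.28 SE, limma adjusted p = 0.123). Dusp1, which encodes a phosphatase of MAP kinases, had 989 and 902 in mutants 38 and 39, against 522 and 459 in wild-types 11 and 73 (0.95 ± 0.12 SE, limma adjusted p = 0.152). These are immediate early genes of many cell types, and their values differed in the direction opposite to Arc. Junb, an AP-1 subunit gene, had both mutants below (log2 fold change -0.45 ± 0.12 SE). Fos, a widely used activity marker, had 500.1 and 335 in mutants 38 and 39, against 405 and 404 in wild-types 11 and 73, with both wild-types between the mutants.

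Among 22 later effectors, which act at synapses or are secreted, 2 were higher and 1 lower at an unadjusted p below 0.05. Over all genes these shares were 2.18% and 1.75%. Of the 22, 8 had both mutants above and 4 both below, against 16.8% and 16.5% of all genes. The median log2 fold change of the 22 was 0.05. The enkephalin precursor gene Penk had 0.78 ± 0.16, the pentraxin gene Nptx2 0.51 ± 0.18 and its relative Nptx1 -0.28 ± 0.10 (SE, n = 2 per group). Homer1, a postsynaptic scaffold gene with an activity-induced short form, had 2653 and 3033 scaled read equivalents in mutants 38 and 39, against 2851 and 3015 in wild-types 11 and 73, and its groups overlapped. Only the Homer1 record with the highest mean was used, so the short form was not assessed apart.

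Among 27 genes of the route from synapse to nucleus, 0 had an unadjusted p below 0.05, and the median log2 fold change was -0.02. Both mutants were below both wild-types for 8 of them and above for 1, against 16.5% and 16.8% of all genes. The kinase genes Rps6ka2 (-0.30 ± 0.14) and Mapk3 (-0.22 ± 0.11) and the Creb coactivator gene Crtc2 (-0.27 ± 0.14) had the smallest p (SE, n = 2 per group). Srf had 1089.7 and 1155 scaled read equivalents in mutants 38 and 39, against 1212 and 1409.7 in wild-types 11 and 73, while Creb1 overlapped between groups at a log2 fold change of -0.02. Of 10 genes for partners of the Arc protein, 0 had an unadjusted p below 0.05 (median -0.03). Among them were the AMPA receptor subunit gene Gria3 (0.19 ± 0.10), the clathrin adaptor gene Ap2m1 (0.23 ± 0.12) and the postsynaptic scaffold gene Dlg4 (-0.19 ± 0.12, SE).

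Of 7 genes for proteins that pair with Npas4, Nr4a and Egr factors, 2 were lower at an unadjusted p below 0.05 and 3 had both mutants below (median log2 fold change -0.14). Over all genes these shares were 1.75% and 16.5%. Nab2, a corepressor of Egr proteins, had 364 and 428 scaled read equivalents in mutants 38 and 39, against 570.1 and 587 in wild-types 11 and 73. On the log2 scale Nab2 differed by -0.55 ± 0.13 (SE, 2 libraries a group; limma adjusted p = 0.9002). Rxrg, a retinoid receptor gene whose product can pair with Nr4a receptors, had 30.2 and 15.5 in mutants 38 and 39, against 49.4 and 119 in wild-types 11 and 73, at -1.78 ± 0.50. Its relative Rxra had -0.22 ± 0.11 (SE). Of 9 neurotrophin and neurotrophin receptor genes 8 were tested, and 0 had an unadjusted p below 0.05 (median -0.04). The Bdnf receptor gene Ntrk2 had a log2 fold change of 0.02, the neurotrophin gene Ntf3 -0.16 ± 0.19, the sorting receptor gene Sorcs2 -0.15 ± 0.13 and the receptor gene Ntrk3 -0.05 ± 0.10 (SE).

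**Figure D4:**
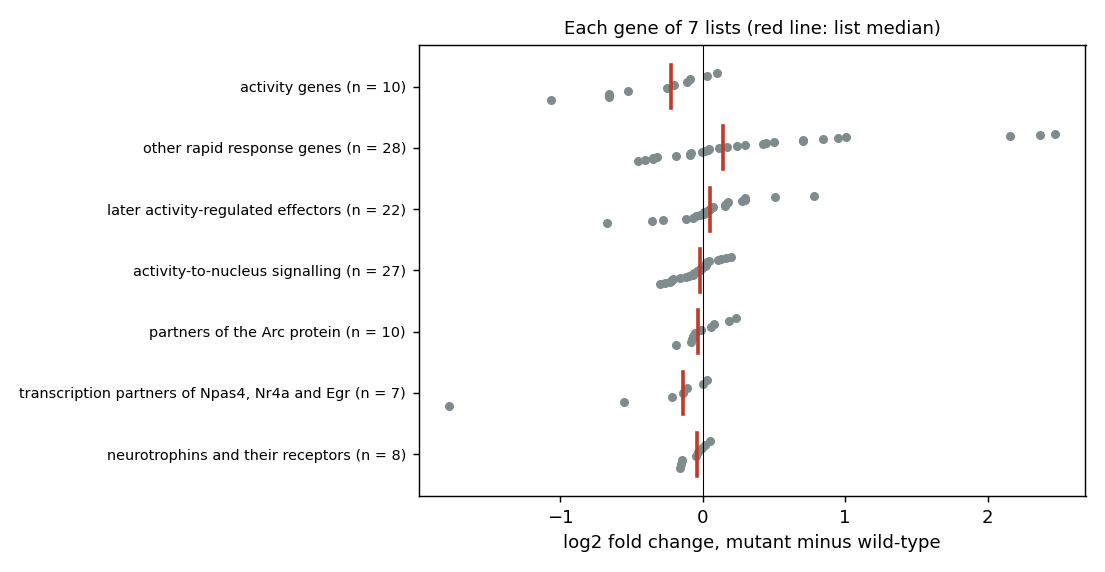
Log2 fold change (mutant minus wild-type) of each tested gene in the list of activity genes and the 6 lists around it, with the list median as a line. The other rapid response genes spread from -0.45 to 2.47, while genes of signalling to the nucleus stay between -0.30 and 0.20.

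Markers of excitatory neurons overlapped between the groups. Over all genes tested, 16.5% had both mutants below both wild-types and 16.8% both above. Of the 10 excitatory and synaptic markers, 0 had groups that did not overlap (median log2 fold change -0.04). Their sum was 92960 scaled read equivalents in mutant 38 and 105928 in mutant 39, against 91093 in wild-type 11 and 109517 in wild-type 73. Slc17a7, the vesicular glutamate transporter gene of these neurons, had 14936 and 18476 in mutants 38 and 39, against 15612 and 17472 in wild-types 11 and 73. Of 9 dentate granule cell markers, 1 had both mutants below (C1ql2, -0.33 ± 0.12 SE) and the median was -0.25. The dentate sum was 9350.0 and 8414 in mutants 38 and 39, against 9757 and 10498 in wild-types 11 and 73, lower in both mutants. The dentate median was 0.06 in the choroid-rich pair and -0.29 in the choroid-poor pair, so the pairs differed in sign. Of 7 CA1 markers, 1 had both mutants below (Fibcd1, -0.60 ± 0.11 SE) and 1 both above (median -0.04). The CA1 median was -0.43 in the rich pair and 0.27 in the poor pair. The part of these cells in the lower Arc, Npas4 and Nr4a3 values was not tested.

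Oligodendrocyte markers were higher in the mutants, with a median of 0.29 in the choroid-rich and 0.58 in the choroid-poor pair. The red blood cell and the thalamus and striatum lists differed between the pairs. Over all genes tested, 16.8% had both mutants above both wild-types and 16.5% both below, and the counts given here stand beside these shares. All 10 oligodendrocyte markers had both mutants above both wild-types (median log2 fold change 0.45). Their sum was 110584 and 97910 scaled read equivalents in mutants 38 and 39, against 89824 and 64768 in wild-types 11 and 73. Of 7 red blood cell genes, 5 had both mutants above (median 0.47, with 0.06 in the rich pair and 0.96 in the poor pair). Their sums were 9120.4 and 10826 in mutants 38 and 39, against 8616 and 5936 in wild-types 11 and 73. The globin genes among them are near-identical copies whose reads can be shared. Of 9 thalamus and striatum markers, 2 had both mutants above and 1 both below (median 0.53). The median of these markers was 1.32 in the rich pair and -0.03 in the poor pair. Their sums were 4205 and 1984 in mutants 38 and 39, against 1786 and 1584 in wild-types 11 and 73. Slc17a6, the vesicular glutamate transporter gene of thalamus, had a log2 fold change of 1.13 ± 0.14 (SE, n = 2 per group; limma adjusted p = 0.123). The median was 0.18 for choroid plexus (0 of 15 markers with groups apart) and 0.06 for endothelium and pericytes (3 of 10 above, 2 below). It was 0.16 for a mixed list of subiculum, claustrum and cortex genes (2 of 7, Nts and Rorb, above, 0 below). That median is the value of Rorb, which is not a marker of deep cortex. For interneurons the median was 0.12 (2 of 8 above, 0 below), for astrocytes 0.06 (2 of 8 above, 0 below) and for microglia 0.06 (2 of 8 above, 1 below). Of all these markers, 0 were at 0 in every library. The part of these cell types in the values of the activity genes was not tested.

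Likeness of pattern was measured as the Euclidean distance of centred log2 values over the 4 libraries, as a description. Among the 10 activity genes the nearest pairs were Npas4 with Nr4a3 (distance 0.17) and Nr4a2 with Egr3 (0.18). Among 11665 other genes with a mean of at least 100 scaled read equivalents, the nearest to Arc were the receptor gene Gpr101 (0.32), the protocadherin gene Pcdh18 (0.32) and Clk1, a kinase of splicing factors (0.34). Clk1 had 1339 and 1385 scaled read equivalents in mutants 38 and 39, against 2397 and 2492 in wild-types 11 and 73. The nearest to Npas4 were 6430411K18Rik (0.11), Ccdc117 (0.12) and the Notch ligand gene Jag1 (0.14). Bdnf was nearest to the potassium channel gene Kcnj2 (0.16), Mab21l1 (0.21) and the DNA repair gene Smug1 (0.23). Nr4a1 was nearest to Slc26a2 (0.032), Fbxo32 (0.033) and Sec22c (0.037). Egr1 was nearest to Ccdc148 (0.013), Ubr1 (0.016) and Ccdc43 (0.016).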

How the data were processed

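Strand-specific RNA-seq libraries were made after ribosomal RNA depletion, per the labels' protocols. The submitters' processing notes name GSNAP, DESeq2 and mm9; for the read counter, strand setting and annotation, a name is not given in the sources used here, so antisense reads cannot be told apart. The authors deposited 1 table of 31315 RefSeq records with a coverage signal per library and a p-value per record. Every signal was a whole multiple of a library-specific step (100% within 0.05 steps), and the commonest values were 42, 84 and 126 steps, so the deposited signal was read as aligned bases after scaling and divided by 42.

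Genes with at least 1 scaled read equivalent in 2 libraries were tested on log2(scaled read equivalents + 1), made here from the deposited signal, with limma 3.58.1 in R 4.3.3 (fold changes of low genes are understated on this log2 scale; variance trend, Benjamini-Hochberg adjustment over all genes, two-sided). limma was checked on simulated data, drawn as independent Gaussian values around the gene means. Such data do not hold the choroid plexus split of these libraries. Scaling, filter, pseudocount, variance model, records, choroid plexus covariate and each left-out library were alternatives. Genes outside the 10 were named as the 3 with the smallest p in a list or the 3 nearest in pattern, except Atp6ap2, Fos, Junb, Homer1, Srf, Creb1, Ntrk2 and Slc17a7, which were added for their known roles after their values were seen. The genes and lists were chosen with earlier results of these data known. Promoters come from RefSeq.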

Additional observations from a re-analysis of the deposited data

How the results depend on the processing

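Under the 14 alternatives the direction held for Arc, Npas4, Nr4a3, Egr2 and Egr4. With 1 library left out, this follows from groups that do not overlap. The filter and variance settings leave the fold change as it was. The number of genes called by limma was 1 with all libraries, 0 without a variance trend, 12 with a robust variance prior, 113 with the choroid plexus covariate and 1 to 37 with 1 library left out. Of the activity genes, 1 (Arc) was called with the robust prior (log2 fold change -1.06) and 1 (Arc) with the covariate (-1.06), against 0 otherwise. In the other lists these numbers were 2 with the robust prior, 16 with the covariate and 0 to 5 with 1 library left out, against 0 in the fit as reported. With 1 library left out, the log2 fold change ran from -0.12 to 0.33 for Nr4a1, -0.40 to 0.19 for Nr4a2, -0.030 to 0.092 for Egr1, -0.28 to 0.10 for Egr3 and -0.53 to 0.13 for Bdnf, so their sign depended on single libraries. These fits assume that the lone library of a group varies like the other group. The number of activity genes lower at an unadjusted p below 0.05 was 2 to 4. No paired analysis was possible because the groups share no replicate numbers. Depth limits Egr2 and Npas4 most, and 2 libraries a group limit every interval.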
